A study of Mus musculus with 9 samples.

Results

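The contractile apparatus of the iris was followed through 10 smooth muscle genes, Acta2, Actg2, Myh11, Tagln, Cnn1, Smtn, Lmod1, Mylk, Synpo2 and Des. They were taken by symbol from a count table of 18349 genes, and all 10 were among the 15010 genes that passed the filter on low counts. Iris RNA of C57BL/6J mice had been sequenced in 9 libraries, 3 in each of 3 groups, and each library held 3 irises of 1 genotype combined. Sham VEGFR3fl/fl mice received PBS on the cornea at 6 weeks of age. Injured VEGFR3fl/fl mice received a corneal alkali injury (CAI), 0.5 µl of 1 M sodium hydroxide for 60 seconds, at the same age. Injured VEGFR3iLECko mice received the same injury and carried Prox1-CreERT2 beside the floxed VEGFR3 (Flt4) alleles. Its libraries are titled as VEGFR3 knockouts, although the genotype tags of replicates 2 and 3 read Vegfr4 depletion and Vegfr5 depletion. The Prox1 promoter drives a tamoxifen-inducible Cre in lymphatic endothelial cells and in any other cell that uses that promoter. Per the labels, tamoxifen was given at 80 mg/kg on days 13 to 17 after the injury, also to the VEGFR3fl/fl littermates, and the methods place collection at 10 weeks of age. Per the methods, the cornea and lens were removed, and the iris was dissected from the ciliary body and trimmed before extraction.

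A smooth muscle cell shortens when myosin filaments pull on actin filaments that are anchored in dense bodies. Calcium and calmodulin activate myosin light chain kinase, which phosphorylates the regulatory light chain and so starts the cycling of the myosin heads, and a phosphatase reverses this step. The iris holds a pair of such muscles, the sphincter, which narrows the pupil under cholinergic input, and the dilator, a thin sheet of contractile processes of the pigmented epithelium, which widens it under adrenergic input. Vascular smooth muscle and pericytes use several of the same genes.

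The libraries held between 16617187 and 18306359 estimated reads. Flt4, the targeted gene, stood at 13.4 to 15.6 CPM (counts scaled to a common library total) in the Sham libraries, 16.8 to 23.0 in the injured VEGFR3fl/fl libraries and 20.96 to 27.9 in the libraries labelled VEGFR3iLECko, so it was not lower in the last group. The difference between the injured groups was 0.34 on the log2 scale (adjusted p = 0.200, edgeR), and a count over the whole gene does not separate the floxed exons from the rest. The summed level of 4 Y-linked genes was 51.1 to 167 CPM in Sham, 151, 136 and 0.804 CPM in injured VEGFR3fl/fl replicates 1, 2 and 3, and 0.736 to 1.11 CPM in injured VEGFR3iLECko, so the sex makeup of the pools was in part confounded with the groups. A fit with the Y-linked level as a covariate was possible because injured VEGFR3fl/fl replicate 3 was also near 0. P-values here measure the spread between these pooled libraries.

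The members spanned a wide range of levels. CPM on the scale of edgeR's trimmed mean of M values (TMM) was used for comparisons between libraries, and approximate TPM, which divide each count by transcript length, for comparisons between genes. In the Sham iris the mean TPM ran in the order Acta2 (5467), Tagln (1817), Myh11 (1295), Smtn (623), Mylk (533), Actg2 (150), Des (118), Cnn1 (103), Lmod1 (42.9) and Synpo2 (25.2). The ranges of neighbours in this order stayed apart except those of Des and Cnn1. By CPM, Acta2 ranked 9 and Myh11 ranked 13 among all genes listed in the Sham iris, so smooth muscle message was plainly present in the tissue. The same genes ranked 62 and 509 in the injured VEGFR3fl/fl iris, and 38 and 340 in the injured VEGFR3iLECko iris. Together the 10 members took 1.04% to 1.26% of all counts in Sham, 0.188% to 0.383% in injured VEGFR3fl/fl and 0.288% to 0.435% in injured VEGFR3iLECko.

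**Figure D1:**
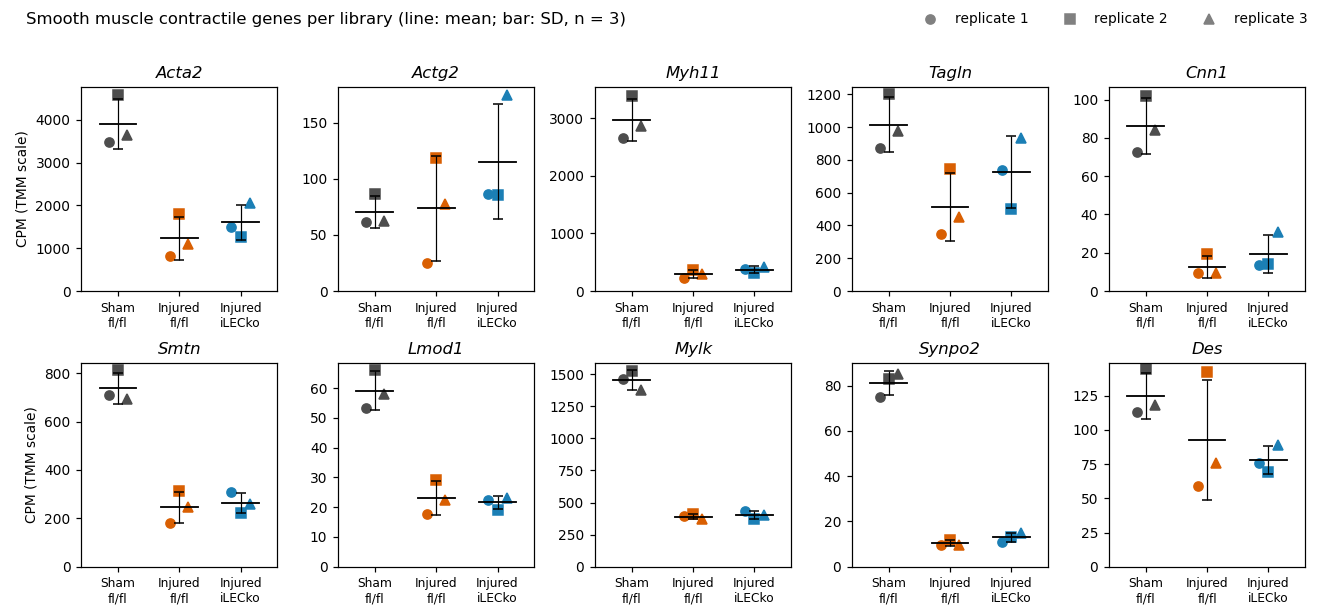
Level of each member in CPM on the TMM scale (vertical axis, from 0, a separate scale for each gene) in the 3 libraries of each group, with the marker shape giving the replicate, the line the mean and the bar the SD. For 8 of the 10 genes every injured VEGFR3fl/fl library lay under every Sham library, while Actg2 and Des overlapped.

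After CAI, 8 of the 10 members fell and none rose by the criteria for a differentially expressed gene (DEG), a Benjamini-Hochberg adjusted p under 0.05 over all genes and a change of more than 1.5-fold. Of all genes tested, 17.5% were DEGs with a lower level and 22.1% with a higher level in this comparison. The median log2 fold change of the members was -1.62, beside 0.01 over all genes. In 8 members every injured VEGFR3fl/fl library lay under every Sham library, an order that 32.4% of all genes showed. In whole tissue, fewer smooth muscle cells, less RNA per cell and a larger share of RNA from other cells cannot be told apart.

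Acta2, on chr19:34240336-34255585 of GRCm38, encodes the smooth muscle alpha-actin of the thin filament. Its transcription in smooth muscle is known to depend on serum response factor bound to CArG boxes, so matches to this element near an annotated start are shown. Whether the element has a part in the fall of the members was not tested. Windows of 300 bases, from 250 before to 50 after an annotated start, were taken from RefSeq's GRCm38.p6 annotation. Of the 10 members 7 had such a window, all but Actg2, Myh11 and Tagln. No window of these 7 held an exact CArG box on either strand, and 1.63% of all windows did. With 1 base other than A or T allowed in the core, Acta2 alone matched, with 2 sites, beside 9.98% of all windows. Both sites are given on the minus strand with 10 bases on each side and the match in capitals.
Acta2 site 1, chr19:34255438-34255467, bases -84 to -75 from the RefSeq start: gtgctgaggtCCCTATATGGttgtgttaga
Acta2 site 2, chr19:34255388-34255417, bases -34 to -25 from the RefSeq start: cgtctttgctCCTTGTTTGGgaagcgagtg
The RefSeq start used here lies inside the span of Acta2 given above, and so do both sites. GENCODE M21 places both in the untranslated part of exon 1 of a transcript that starts further upstream. These are matches of letters, and binding was not measured.

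Acta2 stood at 3486, 4573 and 3634 CPM in the Sham libraries, at 819, 1791 and 1099 CPM in injured VEGFR3fl/fl and at 1484, 1271 and 2050 CPM in injured VEGFR3iLECko. Both injured groups lay under Sham without overlap, and they overlapped with each other. Acta2 fell by 1.66 ± 0.29 (SE) on the log2 scale after CAI, a 3.15-fold lower level (adjusted p = 9.46e-04, edgeR). Actg2, on chr6:83512909-83536251, encodes the gamma-actin of smooth muscle and was measured at 61.8, 86.7 and 62.4 CPM in Sham, 25.4, 119 and 77.7 CPM in injured VEGFR3fl/fl and 86.2, 85.5 and 174 CPM in injured VEGFR3iLECko. All 3 groups overlapped, and the injured VEGFR3fl/fl libraries spread on both sides of the Sham values. Its log2 fold change after CAI was 0.07 with a 95% interval from -1.02 to 1.16 (adjusted p = 0.906), and the sign turned without Sham replicate 1 (-0.01), Sham replicate 3 (-0.0057) or injured VEGFR3fl/fl replicate 2 (-0.44).

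Myh11, on chr16:14194527-14292188, encodes the smooth muscle myosin heavy chain, the motor of the thick filament. It was measured at 2665, 3384 and 2862 CPM in Sham, at 224, 361 and 294 CPM in injured VEGFR3fl/fl and at 391, 306 and 417 CPM in injured VEGFR3iLECko. The gap between Sham and either injured group was many times the spread within a group. Myh11 fell by 3.34 ± 0.20 on the log2 scale after CAI, 10.1-fold (adjusted p = 1.58e-06), and ranked 95 of 15010 genes from the most lowered. Of its 50-base windows, 0.40% also occur in the non-muscle myosin genes Myh9 and Myh10, so its reads were nearly all its own.

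Mylk, on chr16:34745199-35002436, encodes myosin light chain kinase. Its CPM was 1462, 1528 and 1376 in Sham, 394, 408 and 371 in injured VEGFR3fl/fl, and 431, 370 and 403 in injured VEGFR3iLECko. The values within each group were tight, and the injured groups lay far under Sham. Mylk fell by 1.90 ± 0.09 on the log2 scale after CAI, 3.72-fold (adjusted p = 4.14e-07).

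The actin-binding regulators split in size. Cnn1, on chr9:22099221-22109221, encodes calponin, which binds actin and damps the myosin ATPase, and it stood at 72.9, 102 and 84.0 CPM in Sham, 9.47, 19.2 and 9.36 CPM in injured VEGFR3fl/fl and 13.4, 14.3 and 30.9 CPM in injured VEGFR3iLECko. Even the highest injured library lay under the lowest Sham library. Cnn1 fell by 2.76 ± 0.38 on the log2 scale after CAI, 6.80-fold (adjusted p = 2.19e-04). Tagln, on chr9:45929628-45936058, encodes transgelin (SM22), an actin cross-linker, and it stood at 872, 1200 and 975.4 CPM in Sham, 345, 743 and 451 CPM in injured VEGFR3fl/fl and 740, 499 and 935 CPM in injured VEGFR3iLECko. Injured VEGFR3fl/fl lay under Sham in every library, whereas injured VEGFR3iLECko reached into the Sham range. Tagln fell by 0.98 ± 0.30 on the log2 scale after CAI, 1.98-fold (adjusted p = 0.0189), and this call was lost without Sham replicate 2 (-0.85, adjusted p = 0.0643) or without injured VEGFR3fl/fl replicate 3 (-0.90, adjusted p = 0.0593). Of the 50-base windows of the Tagln transcript, 48.3% also occur in the overlapping genes Gm48529 and Pcsk7, so its count is uncertain. Pcsk7 itself stood at 65.7 to 81.1 CPM in Sham and 53.5 to 65.2 CPM in injured VEGFR3fl/fl.

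Smtn, on chr11:3517522-3539292, encodes smoothelin, an actin-binding protein of contractile smooth muscle. It was measured at 710, 812 and 692 CPM in Sham, 182, 311 and 246 CPM in injured VEGFR3fl/fl and 309, 223 and 258 CPM in injured VEGFR3iLECko. No injured library came near the Sham range. Smtn fell by 1.58 ± 0.19 on the log2 scale after CAI, 2.99-fold (adjusted p = 1.04e-04), and 13.2% of its 50-base windows are shared with Gm11946. Lmod1, on chr1:135324813-135368065, encodes leiomodin 1, which nucleates actin filaments, and stood at 53.4, 66.1 and 58.1 CPM in Sham, 17.7, 29.2 and 22.3 CPM in injured VEGFR3fl/fl and 22.4, 19.1 and 23.3 CPM in injured VEGFR3iLECko. Sham lay above both injured groups, which shared one range. Lmod1 fell by 1.36 ± 0.17 on the log2 scale after CAI, 2.57-fold (adjusted p = 1.24e-04).

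The last pair anchors the filaments. Synpo2, on chr3:123076519-123236168, encodes synaptopodin 2 (myopodin), an actin-bundling protein of the dense body and Z-disc, and stood at 75.0, 82.8 and 85.1 CPM in Sham, 9.71, 11.9 and 9.59 CPM in injured VEGFR3fl/fl and 10.98, 13.3 and 14.7 CPM in injured VEGFR3iLECko. The Sham and injured values were far apart. Synpo2 fell by 2.96 ± 0.13 on the log2 scale after CAI, 7.77-fold (adjusted p = 2.51e-07), and ranked 156 of 15010 from the most lowered. Des, on chr1:75360292-75368579, encodes desmin, the muscle intermediate filament, and stood at 113, 144 and 118 CPM in Sham, 59.3, 142 and 75.6 CPM in injured VEGFR3fl/fl and 75.5, 69.4 and 89.3 CPM in injured VEGFR3iLECko. Injured VEGFR3fl/fl replicate 2 lay inside the Sham range and its 2 companions lay under it. The log2 fold change of Des after CAI was -0.44 with a 95% interval from -1.07 to 0.19 (adjusted p = 0.203), and without injured VEGFR3fl/fl replicate 2 it was -0.89 (adjusted p = 0.00166).

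**Figure D2:**
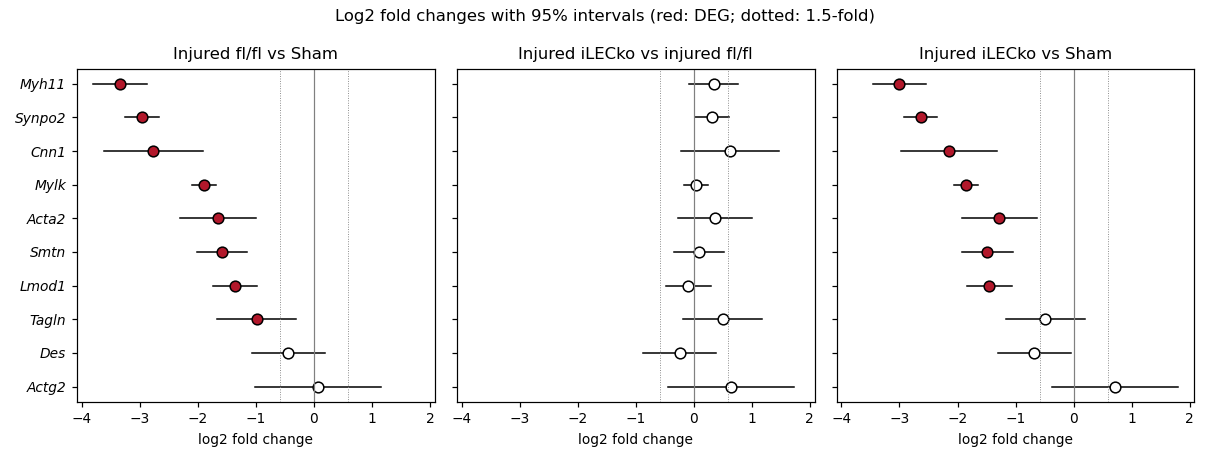
Log2 fold change of each member (horizontal axis) with its 95% interval in the 3 comparisons, red where the gene was a DEG and with dotted lines at 1.5-fold. After CAI the values ran from -3.34 for Myh11 to 0.07 for Actg2, and no member was a DEG between the injured groups.

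The injured groups differ by the labelled deletion and in part by the sex makeup of the pools. Between them none of the 10 members was a DEG by edgeR, beside 1.04% of all genes tested, and none passed an adjusted p of 0.05 by DESeq2, beside 10.4% of the genes that tool tested. By each of these tools 1 member had an unadjusted p under 0.05. This was Synpo2, with a log2 fold change of 0.32 and a 95% interval from 0.03 to 0.61 (adjusted p = 0.175, edgeR). The fitted change was above 0 in 8 of the 10 members, with a median of 0.33 beside -0.0099 over all genes. The members tended to deviate together within a library, so they are not independent. Leaving out 1 library moved the median between 0.14 (without injured VEGFR3iLECko replicate 3) and 0.48 (without injured VEGFR3fl/fl replicate 2). All 10 members had overlapping ranges, whereas 26.7% of all genes did not overlap. With the Y-linked level as a covariate no member passed (smallest adjusted p = 0.528, edgeR), and the median log2 fold change of the members was 0.40.

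How large a difference these libraries leave room for varied by gene. The 95% interval of the log2 fold change was narrowest for Mylk, from -0.16 to 0.24. It ran from -0.08 to 0.76 for Myh11, from -0.26 to 1.01 for Acta2 and from -0.18 to 1.17 for Tagln. For Cnn1 it reached from -0.22 to 1.47 and for Actg2 from -0.45 to 1.73. These libraries thus do not exclude more than a doubling of Acta2, Tagln, Cnn1 or Actg2. The intervals of Smtn (-0.33 to 0.52), Lmod1 (-0.48 to 0.29) and Des (-0.87 to 0.39) also lay on both sides of 0. For these 3 genes and for Mylk the sign of the fitted value turned when 1 library was left out. It turned without injured VEGFR3fl/fl replicate 2 for Lmod1 (0.11) and Des (0.21), without injured VEGFR3iLECko replicate 1 for Smtn (-0.04) and Mylk (-0.02), and without injured VEGFR3fl/fl replicate 1 for Smtn (-0.08).

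The comparison of injured VEGFR3iLECko with Sham shares its libraries with the other comparisons, and it places the third group on the same scale. Here 7 of the 10 members fell and none rose, while 15% of all genes were DEGs with a lower level and 19.7% with a higher one, and the median log2 fold change was -1.47. In 8 members every library lay under every Sham library, beside 33.2% of all genes. The log2 fold change was -3.001 for Myh11, -2.64 for Synpo2, -2.14 for Cnn1, -1.86 for Mylk, -1.49 for Smtn, -1.46 for Lmod1 and -1.28 for Acta2. With the Y-linked level as a covariate, Acta2 (-1.09, adjusted p = 0.113) and Cnn1 (-1.63, adjusted p = 0.0716) no longer passed, which left 5 members lower. The Y-linked level of Sham (51.1 to 167 CPM) and of injured VEGFR3iLECko (0.736 to 1.11 CPM) did not overlap. This fit can therefore hardly separate the covariate from the group here, and the lost calls do not show an effect of sex. In the main fit 3 members did not pass. Tagln did not pass at -0.49 (adjusted p = 0.198), nor did Actg2 at 0.71 (adjusted p = 0.239). Des, at -0.68 (adjusted p = 0.0653), lay under Sham in every library. It passed by DESeq2 (adjusted p = 0.0276), with library size scaling (0.0448), with only the 6 libraries compared (0.00154), and without injured VEGFR3fl/fl replicate 1 (0.0228) or replicate 2 (0.00346), and 8 members were then lower. With the Y-linked covariate Des was at -0.35 (adjusted p = 0.596).

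The proportions of the members differed between Sham and injured irises. Per 100 TPM of Acta2 in the same library, Myh11 stood at 23.8, 23.0 and 24.5 in Sham and at 8.50, 6.26 and 8.30 in injured VEGFR3fl/fl. The ratio of the thick to the thin filament gene was thus lower in every injured VEGFR3fl/fl library. The ratio of Actg2 lay the other way, at 2.71, 2.89 and 2.62 per 100 TPM of Acta2 in Sham and 4.73, 10.1 and 10.8 in injured VEGFR3fl/fl, and Tagln stood at 31.9 to 34.2 in Sham and 52.4 to 53.8 after CAI. Des stood at 2.12 to 2.18 per 100 TPM of Acta2 in Sham and at 4.63 to 5.33 after CAI.

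Of the 9 members set against Acta2, the ratio was higher after CAI in every library for 4 (Actg2, Tagln, Des and Lmod1), lower in every library for 3 (Myh11, Cnn1 and Synpo2) and overlapping for 2 (Smtn and Mylk). Because Acta2 itself fell, 84.5% of all genes had a higher ratio in every library, and 1.53% a lower one. Between the injured groups 7 ratios overlapped, and those of Lmod1 and Des were lower in every injured VEGFR3iLECko library, an order seen in 4.64% of all genes. These ratios are descriptions and were given no test.

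**Figure D3:**
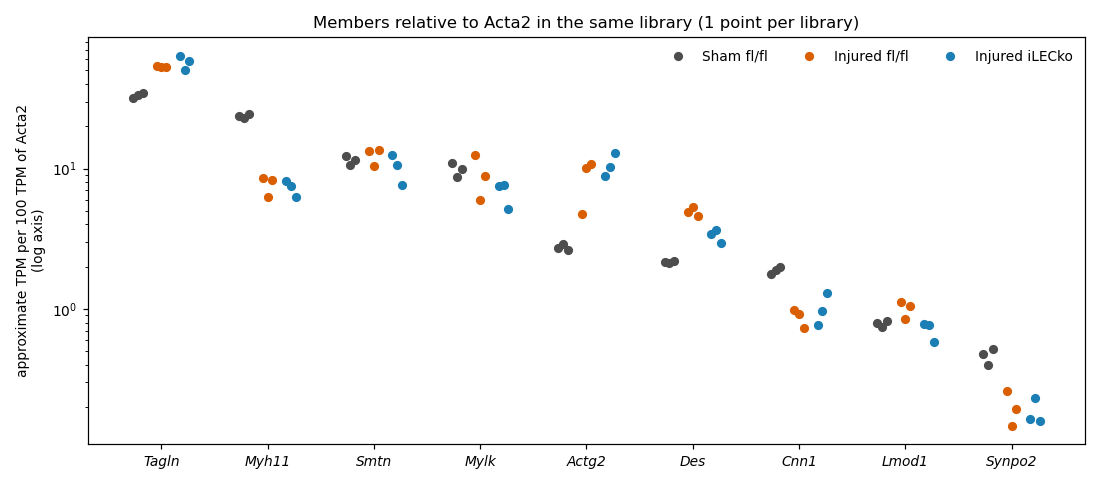
Approximate TPM of each other member per 100 TPM of Acta2 in the same library (log axis), 1 point per library, coloured by group. Myh11, Cnn1 and Synpo2 lie lower in the injured libraries than in Sham, and Tagln, Actg2 and Des lie higher.

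The order of the members by mean TPM after the injury was only in part resolved. In the injured VEGFR3fl/fl iris it ran Acta2 (1437), Tagln (761), Smtn (172), Actg2 (133), Mylk (117), Myh11 (105), Des (72.2), Lmod1 (13.8), Cnn1 (12.5) and Synpo2 (2.65). The ranges of Smtn, Actg2, Mylk, Myh11 and Des overlapped each with the next, as did those of Acta2 and Tagln and of Lmod1 and Cnn1, so the order within each of these stretches was not resolved. In the injured VEGFR3iLECko iris Actg2 (224) came next after Acta2 (2035) and Tagln (1172), with a range that overlapped that of Smtn (201).

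Within a group the members tended to deviate in the same direction in a library. All 10 lay above their group mean in Sham replicate 2 and in injured VEGFR3fl/fl replicate 2, and 9 did in injured VEGFR3iLECko replicate 3. Over all genes, 47.1% to 51.9% lay above the group mean in any library. In injured VEGFR3fl/fl replicate 1 a single member lay above, and the median deviation was -0.38 on the log2 scale, with Actg2 at -1.28. The median deviation was 0.49 in injured VEGFR3fl/fl replicate 2, and the coefficient of variation in that group ran up to 63.3% for Actg2.

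**Figure D4:**
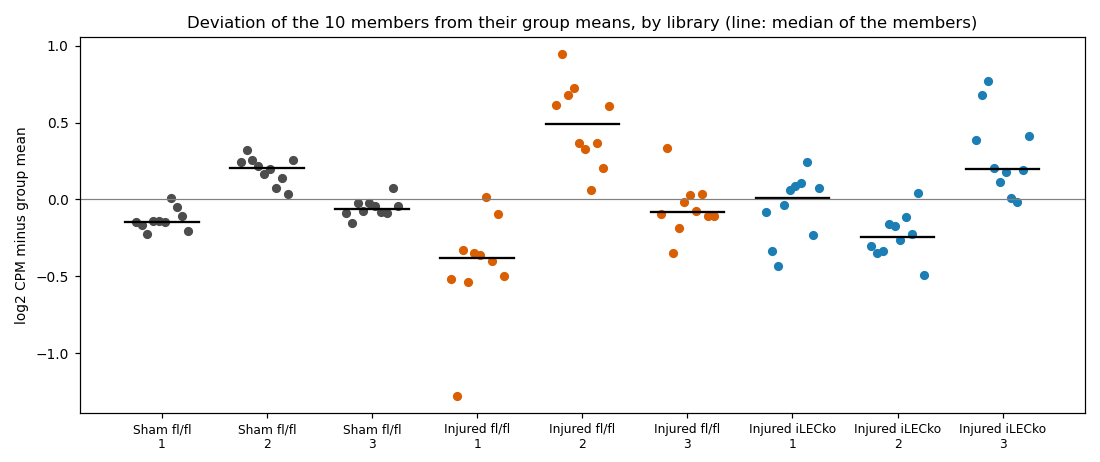
Deviation of each member's log2 CPM from its group mean (vertical axis) in the 9 libraries, with the line at the median of the 10 members. All points lie above 0 in Sham replicate 2 and injured VEGFR3fl/fl replicate 2, and the lowest point is Actg2 in injured VEGFR3fl/fl replicate 1.

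The genes whose log2 CPM followed a member most closely were sought over the 9 libraries. These share the 3 groups, so a similar pattern between groups can give a high correlation whatever the size of the change. For Myh11 they were Slc7a5 (Pearson's r = 0.998), Tacr3 (0.998), Gm2240 (0.997), Sbspon (0.997) and Arhgef37 (0.996). Slc7a5, an amino acid transporter, averaged 272, 46.8 and 59.0 CPM in Sham, injured VEGFR3fl/fl and injured VEGFR3iLECko, and Tacr3, the neurokinin B receptor, averaged 138, 4.33 and 6.45 CPM. For Acta2 they were Ednrb (0.993), Rraga (0.991), Myom1 (0.985), Mal (0.982) and Pla2g2e (0.982). Ednrb, an endothelin receptor, averaged 448, 59.5 and 104 CPM, while Rraga changed little, with 80.7, 68.3 and 70.9 CPM. Among the other members Synpo2 came nearest to Myh11, at rank 32 of 15009 genes, and Cnn1 nearest to Acta2, at rank 7. Actg2 was the farthest from both, at ranks 7534 and 6304. These ranks follow the change between groups. Within groups, after the group means were removed, Actg2 followed Myh11 with r = 0.885 and Acta2 with r = 0.927, and Synpo2 had the lowest r with Myh11 of the 9 other members, 0.444.

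Other parts of the contractile machinery were counted against the shares over all genes after CAI, 22.1% higher and 17.5% lower, or 31.5% and 28.4% with no fold threshold. Of 24 filament, dense body and adhesion partners tested, 4 rose (7 with no fold threshold) and 8 fell after CAI, 16.7% and 33.3% of the list, with a median log2 fold change of -0.42. By the DEG criteria the share that fell was above that of all genes, and the share that rose was close to it. The largest falls were in Pgm5, an adhesion plaque protein (40.3 to 8.55 CPM, -2.24), Myl9, the smooth muscle regulatory light chain (1077 to 270.0 CPM, -1.995), and Hspb6, a small heat shock protein (66.9 to 17.1 CPM, -1.97). The largest rises were in Vim, the intermediate filament of mesenchymal cells (850 to 3034 CPM, 1.84), Tpm4, a tropomyosin (214 to 601 CPM, 1.49) and Myl12a, a regulatory light chain also used outside muscle (266 to 514 CPM, 0.95). All of these passed at an adjusted p of 5.45e-05 or lower (edgeR).

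Of 27 genes that set calcium, phosphatase activity and relaxation, 5 rose (3 when scaled by library size alone) and 12 fell after CAI, 18.5% and 44.4% of the list beside 22.1% and 17.5% of all genes, with a median log2 fold change of -0.50. Casq2, a calcium store protein (5.70 to 1.18 CPM, -2.27), Mrvi1, the target of cGMP kinase at the calcium store (113 to 25.1 CPM, -2.17), and Ppp1r12b, a myosin phosphatase subunit (252 to 63.9 CPM, -1.98), had the largest falls. Rgs2, which shortens G protein signals (19.96 to 80.01 CPM, 2.003), Kcnma1, a calcium-activated potassium channel (6.74 to 18.6 CPM, 1.46), and Ppp1r14a, an inhibitor of the phosphatase (1.198 to 3.16 CPM, 1.39), had the largest rises.

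Of 15 transcriptional regulators of smooth muscle, 3 rose and 2 fell, 20% and 13.3% of the list, which is near the 22.1% and 17.5% of all genes. With no fold threshold 6 rose and 5 fell, beside 31.5% and 28.4% of all genes. Myocd, the coactivator of serum response factor that drives the contractile programme, fell from 7.27 ± 0.74 CPM (SD, n = 3) to 1.64 ± 0.70 CPM, by 2.14 on the log2 scale (adjusted p = 2.67e-04, edgeR), and Klf5, a zinc finger factor, fell by 1.24. Fhl2, a LIM protein, rose from 6.21 to 49.5 CPM (2.99), and Crip2 (0.87) and Mrtfa, another coactivator of serum response factor (0.75), rose as well. Srf, the gene of serum response factor itself, was not a DEG. It stood at 96.8 to 110 CPM in Sham and 61.8 to 81.3 CPM in injured VEGFR3fl/fl, lower in every library. Of 10 autonomic receptors, 2 rose and 6 fell, 20% and 60.0% of the list. Chrm2, a muscarinic receptor, fell from 56.3 to 2.57 CPM (-4.44), Chrm4 from 74.0 to 9.60 CPM (-2.94) and Adrb1 from 3.02 to 0.665 CPM (-2.17), whereas Adra2a rose from 10.2 to 54.99 CPM (2.43) and Adra1d from 1.79 to 3.44 CPM (0.94).

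Paralogs of the members, most of them used outside smooth muscle, gave 5 rises and 4 falls among 14 tested, 35.7% and 28.6% of the list. Tagln2 rose from 73.3 to 340 CPM (2.21), Myh9, a non-muscle myosin, from 319 to 842 CPM (1.40) and Synpo from 70.9 to 147 CPM (1.05), each opposite to the paralogous member. Synpo2l (-2.78), Mylk3 (-2.47) and Smtnl2 (-1.32) fell from levels of at most 3.44 CPM. Lower values were not confined to paralogs of low level. Tmod1 stood at 79.9 to 82.5 CPM in Sham and 34.5 to 59.4 CPM in injured VEGFR3fl/fl. Myh10, the other non-muscle myosin, stood at 95.2 to 113 CPM in Sham and 64.8 to 84.4 CPM in injured VEGFR3fl/fl, the same direction as Myh11. In these 5 lists edgeR called no DEG between the injured groups with all 9 libraries. DESeq2 gave 1 higher gene among the transcriptional regulators, and edgeR gave 1 higher gene among the filament partners without injured VEGFR3fl/fl replicate 2, and 1 each among the control genes and the regulators without replicate 3 of that group.

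**Figure D5:**
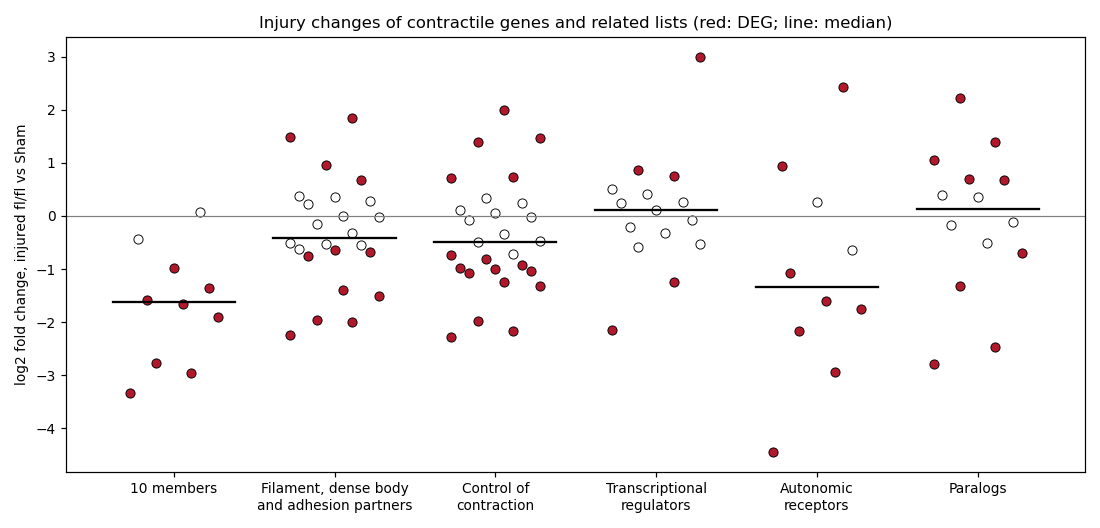
Log2 fold change after CAI (vertical axis) of each tested gene among the 10 members and the 5 related lists, red where it was a DEG, with a line at each list's median. The members have a median of -1.62, against -0.42 for the filament partners and 0.12 for the paralogs.

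Markers of other cells moved with the same comparison, and their part in the members' values was not tested. The shares over all genes after CAI were 22.1% higher and 17.5% lower. All 8 pigment cell markers fell, with a summed level of 27793 to 29756 CPM in Sham, 3413 to 5858 CPM in injured VEGFR3fl/fl and 5118 to 7170 CPM in injured VEGFR3iLECko. Of 12 markers of activated fibroblasts 10 rose, and their sum was 4276 to 4852, 22972 to 30622 and 25241 to 28034 CPM in the same order. All 8 macrophage markers rose, from a sum of 332 to 336 CPM in Sham to 10589 to 19180 CPM in injured VEGFR3fl/fl and 7309 to 9113 CPM in injured VEGFR3iLECko, and none was under 1 CPM in every library of a group. Lyz2 made up most of the sum in both injured groups, at 9118 to 17618 and 6154 to 7942 CPM. Lyz2, Adgre1, Cd68, Csf1r and Fcgr1 were lower in every injured VEGFR3iLECko library than in injured VEGFR3fl/fl. Ptprc and Mrc1 overlapped, and Cd14 was higher (54.8 to 60.7 against 79.6 to 126 CPM). Of 6 blood endothelial markers 4 rose, from 373 to 396 CPM to 1057 to 1245 CPM, with 1069 to 1245 CPM in injured VEGFR3iLECko.

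Pericytes, which share Acta2, Tagln and Des with smooth muscle, had 6 of 10 markers higher and 1 lower after CAI, with sums of 803 to 898 CPM in Sham, 1569 to 2160 CPM in injured VEGFR3fl/fl and 1721 to 1915 CPM in injured VEGFR3iLECko. Striated muscle markers, of which 16 were listed, summed to 27.4 to 33.2 CPM in Sham, 11.8 to 20.6 CPM in injured VEGFR3fl/fl and 9.76 to 13.0 CPM in injured VEGFR3iLECko, and 10 of the 16 were under 1 CPM in every Sham library. Of the 11 tested, 4 rose and 2 fell. Both ciliary body markers together reached at most 3.64 CPM in any library.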

How the data were processed

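Per the labels and methods, RNA of 3 pooled irises per library was prepared with a TruSeq mRNA kit and read as single-end 50-base reads. The authors used HISAT2 2.0.4 and Bowtie2 2.2.5 on mm10 (the GRCm38 build), per the submitters' processing notes, and deposited estimated counts per gene, not normalized. The counting program and strand setting are not given in the sources used here. Between 9.83% and 10.3% of a library's values were not whole, and counts were rounded. A combined table held the same values and was not used.

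Counts were tested with edgeR 4.0.16 (quasi-likelihood, TMM, filterByExpr, group only, all 9 libraries) in R 4.3.3. On simulated data, 164 of 200 genes changed 3-fold were recovered among 15010 for injured VEGFR3fl/fl against Sham. DESeq2 1.42.0, other scalings, no filter, no fold threshold, only the 6 libraries compared, a replicate block, a Y-linked covariate and leaving out each library were alternatives. Intervals are 95%, from the fitted SE and its degrees of freedom. Approximate TPM used the longest GENCODE M21 transcript, known for 96.7% of genes.

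All 10 members are named, and of each related list the 3 DEGs with the largest changes in each direction after CAI at a mean of at least 1 CPM. Among the paralogs Tmod1 and Myh10 are named besides, as are Srf among the regulators and Adra1a, Adra1b and Chrm3 among the receptors. For Myh11 and Acta2 the 5 most correlated genes are named. The members and lists were chosen with earlier results of these data known.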

Additional observations from a re-analysis of the deposited data

How the results depend on the processing

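The falls of Myh11, Synpo2, Cnn1, Mylk, Acta2, Smtn and Lmod1 after CAI kept their direction and call under all 17 alternatives, and the count of members lower after CAI stayed within 1.5 times of 8. Scaling by library size alone moved the median of all genes after CAI to -0.16 (log2). Under it, rises among the contraction control genes numbered 3 instead of 5, falls among the transcriptional regulators 4 instead of 2, and Actg2 stood at -0.074; in injured VEGFR3iLECko against Sham it gave 2 lower regulators instead of 1, as did only the 6 libraries compared and the Y-linked covariate (2 each). Against Sham 8 members instead of 7 were lower under library size scaling, DESeq2, only the 6 libraries compared and without injured VEGFR3fl/fl replicate 1 or 2, and 5 with the Y-linked covariate. With no fold threshold, rises after CAI were 7 among partners and 6 among regulators, falls among regulators 5, and against Sham the injured VEGFR3iLECko regulators numbered 7 higher and 3 lower. Des between the injured groups was 0.017 with the Y-linked covariate. DESeq2 gave 1 higher regulator between the injured groups. Leaving out 1 library gave 0 to 1 higher gene between the injured groups in each of the partners, control and regulator lists, 1 to 2 lower regulators against Sham, and log2 ranges of -0.44 to 0.48 for Actg2 after CAI and, between the injured groups, -0.078 to 0.295 for Smtn, -0.25 to 0.11 for Lmod1, -0.018 to 0.093 for Mylk and -0.48 to 0.21 for Des. The cause was not tested.

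Same-numbered libraries deviated with correlations of -0.39 to 0.13, so the numbers were not taken as pairs; with the replicate block Actg2 after CAI was -0.10. Depth was similar in all libraries, and the spread among 3 pooled libraries limits what can be resolved between the injured groups.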
